A study of Mus musculus with 88 samples.

Results

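The genes described here are interferon-stimulated genes, a list of 44 antiviral and antimicrobial effectors and their regulators. They were followed in the mouse line RAW 264.7, which resembles macrophages. Members were found through the array's probe-to-gene annotation, with older symbols updated through Entrez identifiers. Of the 44 listed genes, 36 were on the array, among 10518 genes tested in all. Gbp5, Oas2, Oas3, Oasl1, Ifi35, Bst2, Ifi44 and Xaf1 had no probe with that annotation and are not analysed here. The 36 genes had 48 probes, and the probes of a gene were averaged.

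Cells were kept for 1, 2 or 4 h with lipopolysaccharide (LPS, 100 ng/ml), isoproterenol (ISO, 50 nM), prostaglandin E2 (PGE2, 10 µM), LPS plus ISO or LPS plus PGE2. LPS is the endotoxin of Gram-negative bacteria, ISO a beta-adrenergic agonist and PGE2 a lipid mediator that acts on receptors of its own. The labels list lipid binding protein (100 pM) with LPS given alone but not with the combinations. Each 2-colour array set RNA of treated cells against RNA of time-matched cells in medium only. Each of the 15 groups held 3 sets of 2 arrays with swapped dyes, except PGE2 at 1 h with 2 sets, which gave 88 arrays and 44 set means.

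Each value is a log2 ratio of treated over medium cells, so 1 unit is a doubling, and 0 is the level in medium. The sources used here do not state which RNA is the numerator, and the direction is called likely. Its basis is a median above 0 over 9 known LPS targets on each of the 18 arrays given LPS alone, between 0.944 and 2.952. A gene is called higher or lower where its adjusted p in limma is below 0.05, with the Benjamini-Hochberg method over all 10518 genes. Whether the sets were separate cultures is unstated in the labels. The p-values therefore reflect the spread over sets alone, and that spread may be technical. No intensities were in the table, so the signal behind a ratio is unknown, and the number of arrays limits the precision. Per array, 10.95 to 45.67% of all probes stood at exactly 0, and the sources used here do not say what such a 0 means. Over the members' probes, 9.78% of values were 0, against 24.96% over all probes with 1 gene. Of 9 macrophage markers 8 had a probe, but ratios hold no level, so the cell type could not be checked against them. With LPS at 4 h the ratio of Fcgr1, an Fc receptor, was 1.73, that of Csf1r, the receptor for macrophage colony-stimulating factor, was -0.68, and Lyz2 stood at 0 on all 6 arrays.

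Interferon-stimulated genes are switched on by type I interferons, secreted proteins that warn neighbouring cells of infection. In macrophages LPS engages Toll-like receptor 4, whose adaptor TRIF leads to the kinase TBK1 and the factor IRF3, which turn on the interferon beta gene. Secreted interferon beta then acts on its receptor of IFNAR1 and IFNAR2. The kinases JAK1 and TYK2 phosphorylate STAT2, which with IRF9 is part of the complex that binds the interferon-stimulated response element (ISRE) in target promoters. Interferon gamma acts through the gamma-activated site (GAS). Some members can also be turned on by IRF3 itself, before any interferon has acted.

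The promoters of 5 members show these elements, and they were chosen to cover the forms found: overlapping ISRE letters, separate copies, a single copy, an ISRE beside a GAS, and no match. Each is the 250 bases before the transcription start, from RefSeq on GRCm38.p6, and capitals mark the letters of a match to GAAANNGAAA (ISRE) or TTCNNNGAA (GAS) on either strand. Isg15, the ubiquitin-like modifier, has 3 overlapping ISRE matches that begin 78, 72 and 66 bases before the start. Ifit3, an antiviral protein of the IFIT family, has an ISRE match at 156 and another at 122 bases before the start. Gbp2, a guanylate-binding protein, has 1 match at 59 bases. Igtp, an immunity-related GTPase, has a GAS match at 45 and an ISRE match at 34 bases. Cmpk2, a mitochondrial nucleotide kinase, has no match to either motif.
Isg15 (chr4:156200819-156201068, minus strand): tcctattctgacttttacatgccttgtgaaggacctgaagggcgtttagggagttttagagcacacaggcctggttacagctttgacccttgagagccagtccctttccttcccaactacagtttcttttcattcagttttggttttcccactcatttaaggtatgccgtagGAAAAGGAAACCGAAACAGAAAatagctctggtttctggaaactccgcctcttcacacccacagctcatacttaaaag
Ifit3 (chr19:34583279-34583528, plus strand): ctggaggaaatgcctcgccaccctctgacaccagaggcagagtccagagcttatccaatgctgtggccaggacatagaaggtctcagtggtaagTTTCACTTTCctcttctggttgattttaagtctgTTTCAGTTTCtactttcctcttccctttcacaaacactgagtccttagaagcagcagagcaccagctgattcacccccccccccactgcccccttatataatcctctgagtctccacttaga
Gbp2 (chr3:142620413-142620662, plus strand): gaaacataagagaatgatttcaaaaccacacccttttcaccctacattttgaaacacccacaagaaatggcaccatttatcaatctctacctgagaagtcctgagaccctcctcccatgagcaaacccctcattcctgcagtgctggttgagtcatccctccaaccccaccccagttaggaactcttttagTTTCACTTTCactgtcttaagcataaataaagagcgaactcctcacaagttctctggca
Igtp (chr11:58199306-58199555, plus strand): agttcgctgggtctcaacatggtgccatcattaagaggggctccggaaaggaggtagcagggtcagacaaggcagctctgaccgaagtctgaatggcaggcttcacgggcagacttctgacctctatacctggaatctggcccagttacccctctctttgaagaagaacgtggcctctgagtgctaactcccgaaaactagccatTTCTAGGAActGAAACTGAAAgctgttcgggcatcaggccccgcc
Cmpk2 (chr12:26468965-26469214, plus strand): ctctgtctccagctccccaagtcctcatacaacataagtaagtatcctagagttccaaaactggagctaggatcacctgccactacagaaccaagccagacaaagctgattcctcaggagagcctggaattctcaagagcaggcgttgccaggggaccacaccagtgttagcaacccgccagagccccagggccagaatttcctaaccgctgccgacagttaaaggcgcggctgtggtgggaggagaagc

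A promoter window of 250 bases before to 50 after a start was at hand for 26 of the 36 members, in 35 windows where a gene has several starts. The ISRE letters were in 42.9% of the members' windows, against 3.44% of 32851 windows of all genes. By gene, 15 of 26 members (57.7%) held at least 1 match, against 3.99% of all genes with a window. The GAS letters were in 28.6% of the members' windows against 8.3% of all windows, or in 10 of 26 members. In Ifitm3, which encodes a membrane protein that hinders virus entry, the GAS match overlaps 1 of the ISRE matches, so the shared letters were counted under both. A match is a description of letters, and no match says only that these letters are not in this window. By these letters, the median log2 ratio with LPS at 4 h was 3.24 over the 15 members with an ISRE match (0.27 to 4.98) and 2.63 over the 11 members without one (0.00 to 4.72), so the ranges overlapped almost fully. For the GAS letters the median was 1.52 over the 10 members with a match (0.00 to 4.21) and 2.84 over the 16 without (1.52 to 4.98). Neither split was tested.

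LPS raised nearly the whole list, late and by large factors. At 1 h 2 of 36 members were higher, at 2 h 19 and at 4 h 34. Over all genes tested the shares called higher were 4.64%, 8.88% and 14.3%. The members' median log2 ratio was 0.02 at 1 h, 0.60 at 2 h and 2.84 at 4 h, while the median of all genes stayed at 0 at each time. At 4 h all 34 members called higher were at least doubled, and none was called lower, against 16.4% of all genes.

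**Figure D1:**
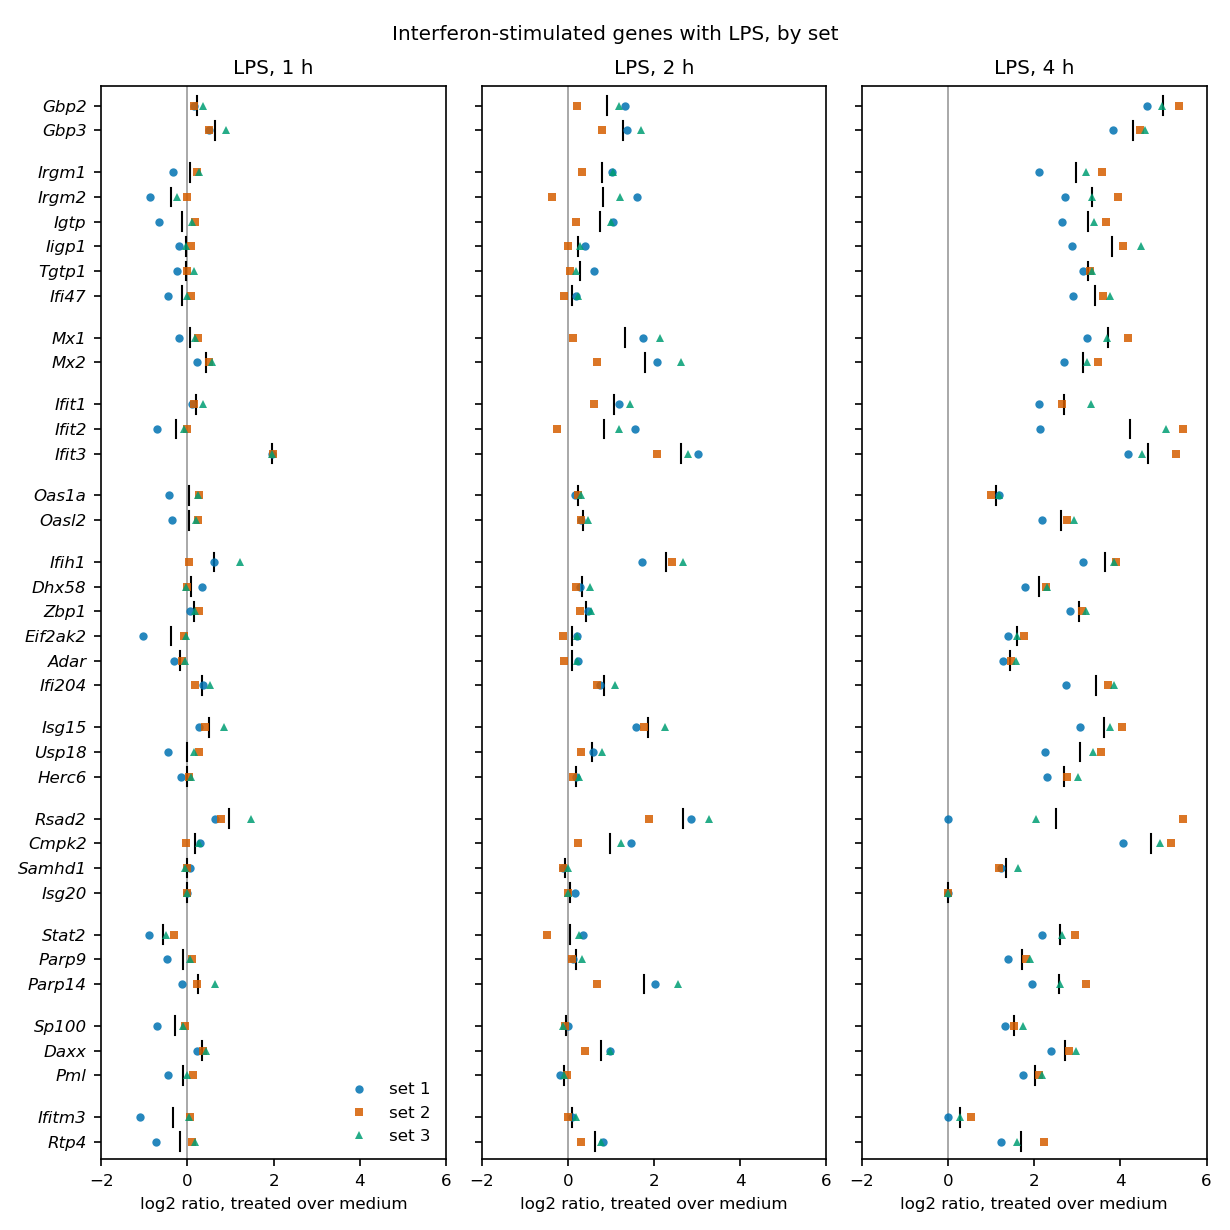
Log2 ratio of treated over medium cells with LPS for each of the 36 interferon-stimulated genes (rows, spaced by role) at 1, 2 and 4 h; points are the 3 sets and black bars their mean. At 1 h most points lie near 0, at 2 h set 2 lies left of the others for many genes, and at 4 h all but Isg20, Ifitm3 and 1 set of Rsad2 lie at 0.99 or above.

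The guanylate-binding proteins, GTPases that coat and break the vacuoles of intracellular microbes, held the largest response. Gbp2 had log2 ratios of 4.62, 5.36 and 4.97 in sets 1, 2 and 3 at 4 h (4.98 ± 0.37, SD, n = 3). That is 31.6-fold over medium, with an adjusted p of 1.5e-20. Gbp3 had 3.82, 4.46 and 4.57 (4.29 ± 0.41), a 19.5-fold ratio. Every set of both genes lay far above its own 1 h and 2 h values. Both probes of Gbp3 rose, by 5.01 and 3.56.

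All 6 immunity-related GTPases, which attack the membranes around parasites and bacteria inside the cell, were higher at 4 h. Their log2 ratios ran from 2.96 for Irgm1 to 3.81 for Iigp1. Iigp1 had 2.88, 4.06 and 4.47 in sets 1 to 3 (3.81 ± 0.83), with set 1 the lowest. Irgm2, Igtp, Ifi47 and Tgtp1 had means of 3.33, 3.24, 3.42 and 3.25. The probes of Tgtp1 differed in size, 1.92 against 4.59. Only Irgm1 and Igtp of these GTPases had passed the threshold at 2 h, at 0.80 and 0.75. The Mx GTPases, which trap viral ribonucleoproteins, were higher from 2 h on. Mx1 had 3.22, 4.18 and 3.69 at 4 h (3.70 ± 0.48, 13.0-fold), again lowest in set 1. Its probes differed, 4.55 against 2.85, and Mx2 had a mean of 3.13.

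The genes of the IFIT proteins, a family with antiviral roles, were all higher at 4 h. Ifit3 had 4.17, 5.28 and 4.49 there (4.64 ± 0.57, 25.0-fold), and both of its probes were high, at 4.30 and 4.98. The gene mean of Ifit3 was also called at 1 h (1.96, 1.99 and 1.96, adjusted p 6.88e-09) and at 2 h (3.02, 2.07 and 2.79), but there its probes disagreed. One probe stood at 5.45, 3.97 and 3.81 in the 3 sets at 1 h and hardly moved after that, with means of 4.41, 4.01 and 4.30 at 1, 2 and 4 h. The other stood at -1.53, 0.02 and 0.12 at 1 h and had means of -0.46, 1.25 and 4.98. The 1 h mean of 1.97 is thus a level that neither probe showed, its small spread (SD 0.02) comes from probes that deviated in opposite directions, and the early call rests on 1 probe. Which probe follows Ifit3 at 1 and 2 h was not tested. Ifit2 had 2.13, 5.44 and 5.06 at 4 h (4.21 ± 1.81). Its low value in set 1 rests on a probe listed at 0 on both arrays of that set, while the other probe had 4.03 and 4.49 there. With zeros left out the mean of Ifit2 is 4.92. Ifit1 had a mean of 2.69 at 4 h, from 1 probe at 4.48 and another at 0.90 that was 0 on most arrays.

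Both measured oligoadenylate synthetase genes were higher at 4 h. Oasl2 stood at 2.63, and Oas1a, whose enzyme makes the activator of RNase L, at 1.11, the smallest called response of the list at this time. The nucleic acid sensors and RNA-acting enzymes were all 6 higher at 4 h, from 1.44 for the RNA-editing enzyme Adar to 3.63 for Ifih1. Ifih1 encodes MDA5, a sensor of long double-stranded RNA, and had 3.14, 3.90 and 3.84 in the 3 sets (3.63 ± 0.42). Ifi204, a DNA sensor of the HIN-200 family, had 2.74, 3.72 and 3.84 (3.43 ± 0.60). Zbp1, a sensor of Z-form nucleic acid, had 3.04, the helicase gene Dhx58 2.12 and the kinase gene Eif2ak2, which halts translation, 1.59. Set 1 gave the lowest value in all 6.

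Isg15, whose promoter is shown above, had 3.05, 4.04 and 3.76 at 4 h (3.62 ± 0.51, 12.3-fold). Usp18, which removes ISG15 from proteins and restrains the interferon receptor, had 3.05, and Herc6, a ligase for ISG15, 2.69. Among the enzymes acting on nucleotides, Cmpk2 reached 4.05, 5.18 and 4.92 (4.72 ± 0.59, 26.3-fold), with no ISRE letters in its window. Its neighbour Rsad2 encodes viperin, which makes a chain-terminating nucleotide, and had 0.00, 5.44 and 2.05 at 4 h (2.50 ± 2.75, adjusted p 0.00613). Of the 6 arrays 3 listed Rsad2 at 0, all in sets 1 and 3, and without those zeros its mean is 4.77. Without set 2 the adjusted p of Rsad2 is 0.146. Samhd1, which breaks down the building blocks of DNA, stood at 1.35.

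Stat2, a subunit of the factor that binds the ISRE, reached 2.60, and the ADP-ribosyltransferase genes Parp14 and Parp9 reached 2.58 and 1.71. The nuclear body genes Daxx, Pml and Sp100 reached 2.72, 2.01 and 1.52, and Rtp4, a negative regulator of interferon signalling, 1.68. Set values of these genes are in the plot of LPS ratios by time.

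A pair of members did not pass at 4 h. Isg20, an RNA exonuclease, was 0 on all 6 arrays, so it is only listed at 0. Ifitm3 had 0.00, 0.52 and 0.27 (0.27 ± 0.26, adjusted p 0.141), with 3 of 6 arrays at 0. With zeros left out its mean is 0.53 (adjusted p 0.00499), and without set 1 it is 0.40 (adjusted p 0.000214).

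The test of the difference between times placed most of the rise after 2 h. From 2 to 4 h 32 of 36 members rose further, against 5.46% of all genes, and the median difference was 2.06. Gbp2 rose most in this interval, by 4.07. The 4 members without this call were Isg20, Rsad2, Ifitm3 and Parp14. The difference of Rsad2 (-0.18) holds its zeros at 4 h, described above. Parp14 passed in a limma fit with the set as a block (0.82, adjusted p 0.0338). From 1 to 2 h 3 members passed, Ifih1, Parp14 and Isg15, against 1.29% of all genes, with a median difference of 0.53. Leaving out set 3 left no member called there, and leaving out set 2 gave 7.

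At 1 h the calls were few and near the share over all genes. Ifit3 and Gbp3 were higher, Gbp3 with 0.49, 0.50 and 0.90 in the 3 sets (0.63 ± 0.23, adjusted p 0.0255). Stat2, Eif2ak2 and Sp100 were lower, 3 of 36 against 4.84% of all genes. Stat2 had -0.89, -0.32 and -0.50 (-0.57 ± 0.29, adjusted p 0.0305). Eif2ak2 had -1.04, -0.09 and -0.03, and Sp100 -0.70, -0.06 and -0.11. In both, set 1 stood apart from the other sets, and without set 1 no member was called lower at 1 h and 2 were called higher. Both probes of Gbp3 had positive 1 h means, 0.97 and 0.29, but the gene did not pass with any 1 set left out (adjusted p 0.079, 0.109 and 0.178). Ifit3 passed each time, as a mean of the probes that disagree. Without set 3, 1 member was called at 1 h.

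At 2 h the 19 members called higher were led by Rsad2, with 2.85, 1.88 and 3.28 (2.67 ± 0.72), Ifit3 with a mean of 2.63 from probes at 4.01 and 1.25, and Ifih1 with 1.73, 2.42 and 2.67 (2.27 ± 0.48). Isg15 had 1.59, 1.78 and 2.25 (1.87 ± 0.34). Rsad2 did not pass at 2 h without set 1 (adjusted p 0.12) or without set 3 (adjusted p 0.143). In these fits too its spread covers all groups, with its zeros at 4 h. The share called lower was 0 of 36 members against 7.01% of all genes. Without set 3, 9 members were called at 2 h, and with a spread estimated from the LPS arrays of that time alone none was, against 29 at 4 h. By first time called, 2 members passed at 1 h (Gbp3 and, through 1 probe, Ifit3), 17 at 2 h, 15 at 4 h and 2 at no time. The 15 late members included 4 of the 6 immunity-related GTPases, Ifit2, Stat2 and the nuclear body genes Sp100 and Pml. Of these 15, Irgm2 (0.82, adjusted p 0.00161), Ifit2 (0.84, adjusted p 0.0359), Dhx58 and Oas1a passed at 2 h already in a fit with the set as a block.

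The sets differed in a shared way. With LPS at 2 h, set 2 gave the lowest value for 29 of 35 members with 3 distinct values (82.9%), against 32.5% of all such genes. The members' median was 0.68 in set 1, 0.20 in set 2 and 0.78 in set 3. Mx1 is an example with 1.74, 0.12 and 2.13, and Irgm2 had 1.60, -0.36 and 1.22. Ifih1 and Isg15 were not lowest in set 2. At 4 h the low set was set 1, for 33 of 35 members (94.3%) against 37.5% of all genes, with medians of 2.22, 3.25 and 3.19. The same sets were low with the combinations: at 2 h set 2 was lowest for 85.7% of members with LPS plus ISO and 72.2% with LPS plus PGE2, and at 4 h set 1 for 88.6% with each. At 1 h the likeness was weaker. Set 1 was then lowest for 85.7% of members with LPS, against 39.8% of all genes. With LPS plus ISO and LPS plus PGE2 it was lowest for 58.3% and 51.4%, against 38.5% and 38.6%. Irgm1 at 4 h had 2.11, 3.57 and 3.19 with LPS, 2.16, 3.32 and 3.20 with LPS plus ISO and 2.07, 3.30 and 3.17 with LPS plus PGE2. The part of stimulation, harvest or medium cells in this pattern was not tested, and the sources used here do not say whether groups of a set shared medium RNA.

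**Figure D2:**
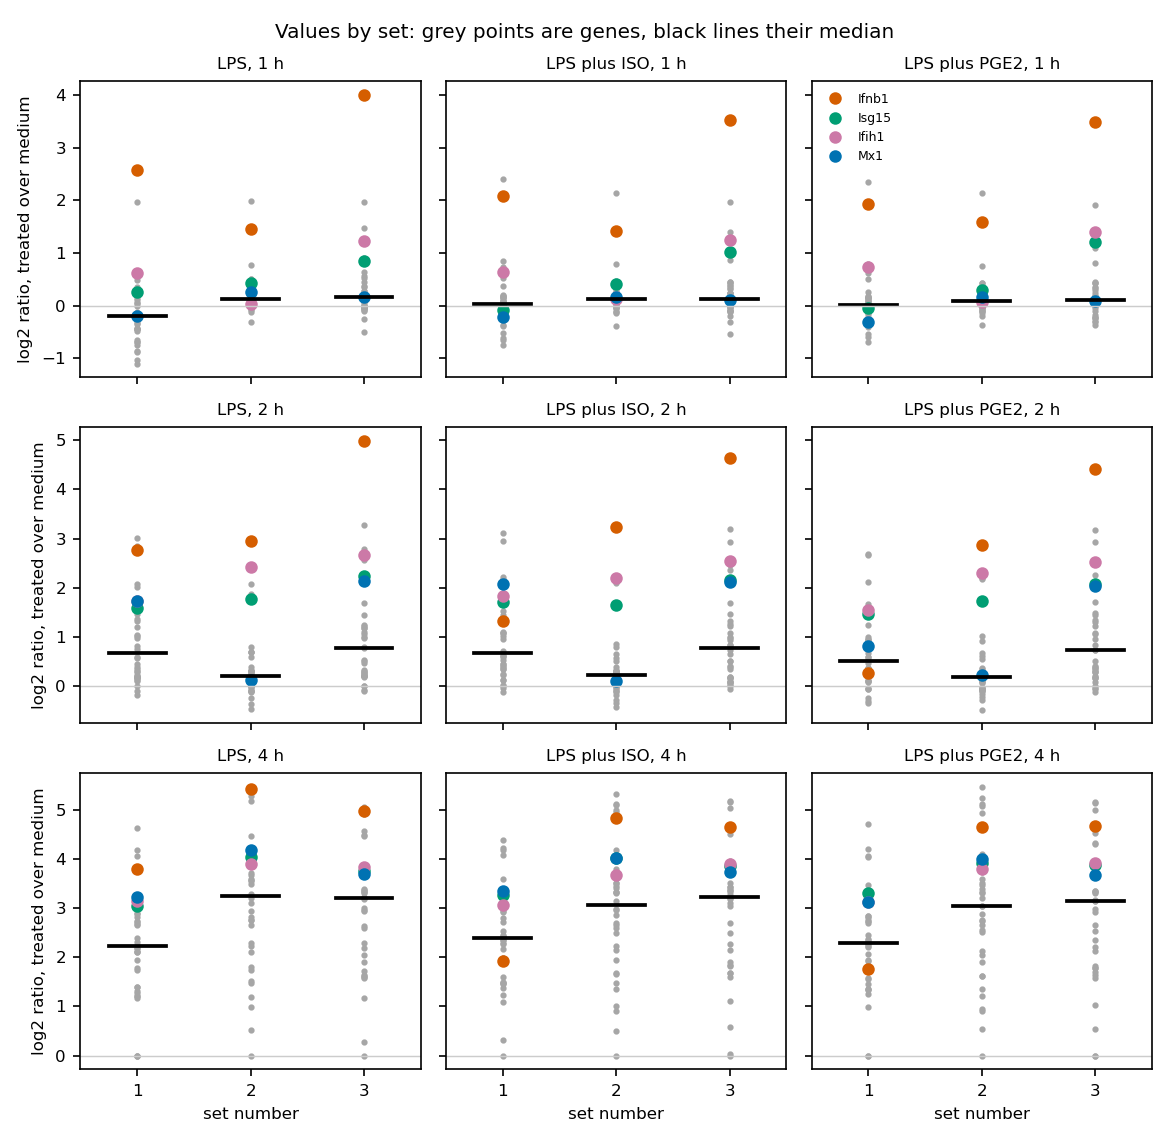
Log2 ratio of treated over medium cells by set number for LPS, LPS plus ISO and LPS plus PGE2 (columns) at 1, 2 and 4 h (rows); grey points are the 36 genes, black lines their median, and coloured points Ifnb1, Isg15, Ifih1 and Mx1. At 2 h the median is lowest in set 2 in all 3 columns, and at 4 h in set 1.

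Because sets of the same number and time moved together, a second fit removed the part shared by all groups of a set at a time. For treated against medium cells and between times, this block leaves the sets' shared spread out of the error. Those p-values therefore speak of these sets only. Between groups of the same time the block compares the groups within sets, and the spread of that difference over sets stays in the error. With it the members called with LPS at 1 h rose from 5 to 9 (5 higher, 4 lower), against 19.7% of all genes, a share not far from the members'. Isg15 (0.51, adjusted p 0.00624), Ifih1 (0.62, adjusted p 0.00175) and Daxx were added as higher, and Ifitm3 (-0.34) as lower. The Ifitm3 value rests on set 1. Its log2 ratios, without sign, were 0.85 and 1.38 on the arrays of set 1. They were 0.01 and 0.11 in set 2 and 0.02 and 0.09 in set 3. Between 1 and 2 h 18 members then rose, while 8.01% of all genes were called in either direction.

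No effect of ISO or PGE2 on the LPS response of the interferon-stimulated genes was detected. With LPS plus ISO 2, 18 and 35 members were higher at 1, 2 and 4 h, against 4.15%, 7.7% and 14.4% of all genes. With LPS plus PGE2 the counts were 3, 16 and 35, against 4.7%, 7.49% and 15.2%. Members called lower were 1, 0 and 0 with LPS plus ISO (3.27%, 6.15% and 15.6% of all genes), the 1 being Stat2 at 1 h. With LPS plus PGE2 none was lower at any time (2.99%, 5.77% and 16.5%). With the set block the 1 h counts were 6 for each combination, 4 higher and 2 lower. The lower ones were Stat2 and Adar with each (Stat2 -0.47 and Adar -0.24 with LPS plus PGE2). These counts stand against 17.3% and 16.9% of all genes, which are like shares. Without set 3 the combinations had 9 and 7 members called at 2 h, and 1 each at 1 h. At 4 h the members' medians were 2.84 with LPS, 2.82 with LPS plus ISO and 2.74 with LPS plus PGE2.

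**Figure D3:**
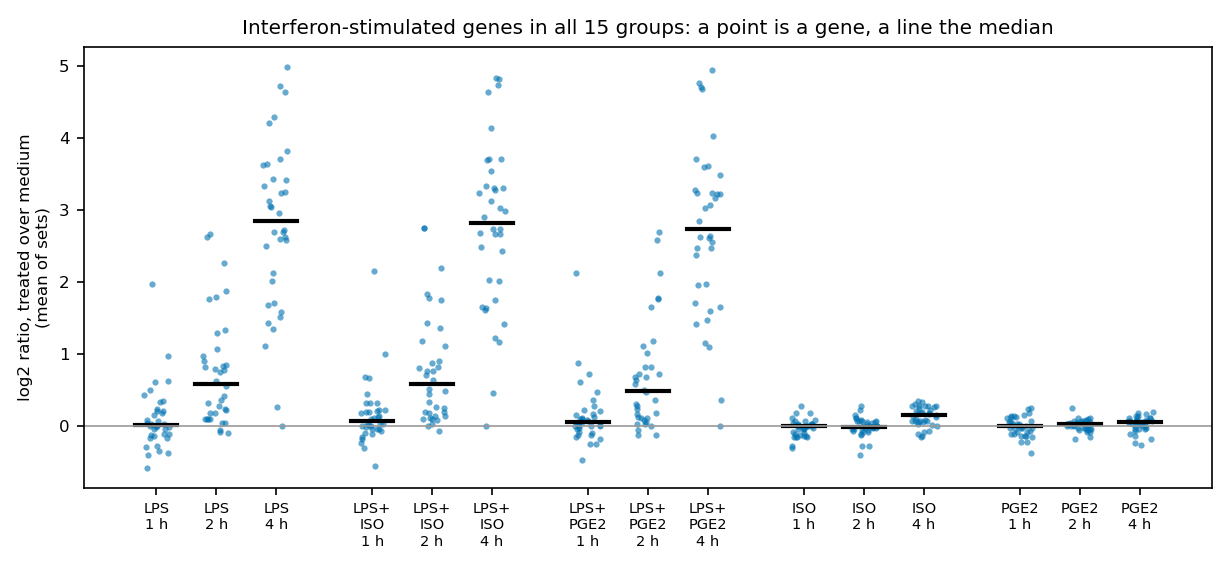
Mean log2 ratio of treated over medium cells for each of the 36 interferon-stimulated genes (points) in the 15 groups, with black lines at the median. With LPS, alone or combined, the medians climb from near 0 at 1 h to 2.74 to 2.84 at 4 h, while with ISO or PGE2 alone every point lies between -0.39 and 0.35.

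Gbp2 shows the size of these differences at 4 h. It had 4.62, 5.36 and 4.97 with LPS, 4.39, 4.99 and 5.04 with LPS plus ISO, and 4.71, 5.11 and 4.99 with LPS plus PGE2. The 3 groups overlapped, and set 1 was the lowest in each. The difference from LPS was -0.18 (95% interval -0.67 to 0.32) with ISO and -0.04 (-0.54 to 0.45) with PGE2. Cmpk2 differed from LPS by 0.01 (-0.67 to 0.69) and -0.01 (-0.69 to 0.67), and Isg15 by 0.09 (-0.50 to 0.69) and 0.09 (-0.51 to 0.68). Zbp1 had narrower intervals, 0.09 (-0.22 to 0.39) with ISO and 0.02 (-0.28 to 0.33) with PGE2. The outermost differences at 4 h were 0.62 and 0.55 for Ifit2, whose LPS mean holds the probe listed at 0 in set 1, -0.28 for Tgtp1 with ISO and -0.31 for Iigp1 with PGE2.

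Tested directly, no member differed between LPS plus ISO and LPS at 1, 2 or 4 h in limma, against 0.019%, 0% and 0.0951% of all genes. None differed between LPS plus PGE2 and LPS, against 0%, 0% and 0.0285%. None differed between the combinations, against 0% of all genes at each time. These tests and their intervals did not pair the groups by set. With the set block, which does, no member differed either. Over all genes the block gave 6, 16 and 53 calls with ISO and 3, 3 and 50 with PGE2 at 1, 2 and 4 h. At an unadjusted p below 0.05 the counts were 1, 0 and 0 members with ISO, 1, 1 and 0 with PGE2, and 0, 1 and 0 between the combinations. Over all 10518 genes those counts were 629, 308 and 351 with ISO and 484, 242 and 424 with PGE2. Between the combinations they were 128, 168 and 154 genes. The median differences were 0.04, 0.02 and -0.01 with ISO and 0.03, -0.07 and -0.03 with PGE2. At 4 h the 95% interval lay within 1 log2 unit of 0 for 34 of 36 members in both comparisons, and reached beyond a doubling for Ifit2 and Rsad2. The half-width of these intervals ran from 0.17 to 2.05, with a median of 0.52. A call needs more than an interval without 0, since p-values are adjusted over all genes. Any effect of the lipid binding protein, named for LPS alone, cannot be told apart from that of adding ISO or PGE2.

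**Figure D4:**
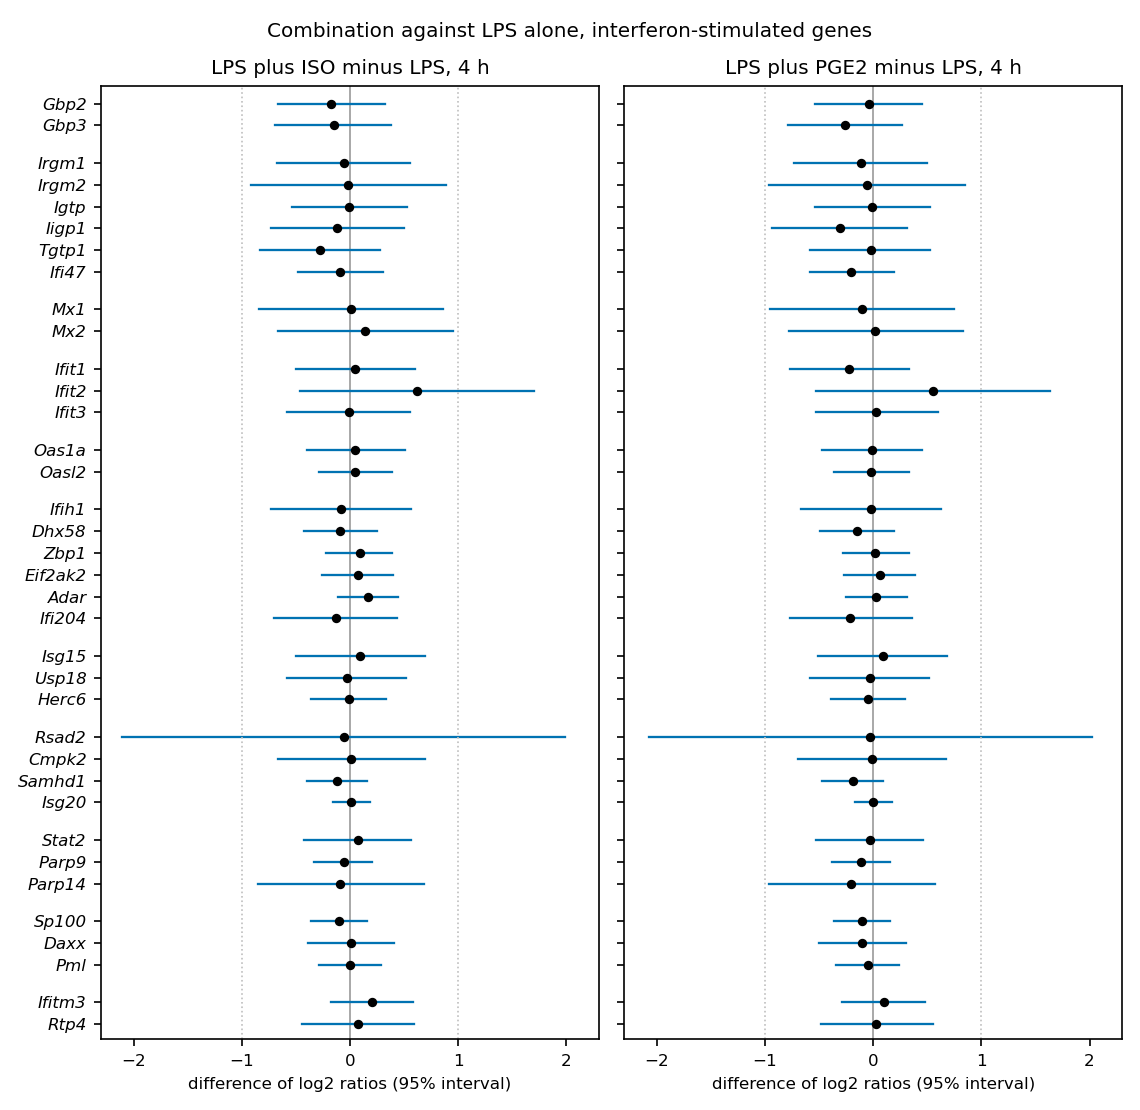
Difference in log2 ratio between each combination and LPS alone at 4 h for the 36 interferon-stimulated genes; points are differences, lines 95% intervals from limma and dotted lines 1 log2 unit, a doubling or its inverse. Every interval includes 0, and only those of Ifit2 and Rsad2 reach past a dotted line. The intervals do not pair the groups by set.

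Given alone, ISO and PGE2 left the list near the level in medium. No member passed with ISO, against 0.903%, 1.71% and 3.36% of all genes at 1, 2 and 4 h, and none with PGE2, against 0.323%, 0.456% and 1.14%. At an unadjusted p below 0.05 the limma counts were 1, 1 and 4 members with ISO and 2, 0 and 1 with PGE2. Over all 10518 genes those counts were 1037, 1092 and 1688 with ISO and 1007, 574 and 1006 with PGE2. The members' ratios with ISO ran from -0.39 to 0.35 over the 3 times, and those with PGE2 from -0.37 to 0.25. The medians were 0.00, 0.00 and 0.16 with ISO and 0.00, 0.03 and 0.06 with PGE2. At 4 h with ISO 30 of 36 members had a positive mean, while the median over all genes was -0.002. Pml came closest to a call there, with 0.40, 0.27 and 0.27 in the 3 sets (0.31, adjusted p 0.0831). With the set block Pml, Adar and Daxx were higher with ISO at 4 h, against 11.2% of all genes, Oas1a with ISO at 2 h (0.23, adjusted p 0.0352), against 5.36%, and Adar was lower with PGE2 at 1 h (-0.36, adjusted p 0.00446), against 4.14%. These shares of all genes are of calls in either direction, and the members' shares are below them. Without set 1, 1 member was called with ISO at 4 h in the fit with no block.

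Of the further genes of the interferon pathway 28 were tested. Ticam1, Ticam2, Rigi and Mavs had no annotated probe and are not analysed here. With LPS 2, 11 and 16 of the 28 were higher at 1, 2 and 4 h, and 2, 3 and 3 were lower. Over all genes the shares with LPS were 4.64%, 8.88% and 14.3% higher and 4.84%, 7.01% and 16.4% lower. With LPS plus ISO 5, 10 and 16 were higher and 2, 4 and 3 lower, and with LPS plus PGE2 6, 8 and 17 were higher and 2, 4 and 3 lower. Over all genes 4.15%, 7.7% and 14.4% were higher with LPS plus ISO, and 3.27%, 6.15% and 15.6% lower. With LPS plus PGE2 the shares were 4.7%, 7.49% and 15.2% higher and 2.99%, 5.77% and 16.5% lower. No pathway gene differed between either combination and LPS. Among the ligands Ifnb1, interferon beta, was higher at every time, with 2.57, 1.45 and 4.00 at 1 h (2.67 ± 1.28), 2.76, 2.96 and 4.99 at 2 h, and 3.79, 5.41 and 4.97 at 4 h (4.72, adjusted p 2.28e-07). Set 3 was the highest at 1 and 2 h. Set 1 was the lowest at 4 h, as for most members. At 1 h Ifnb1 was lowest in set 2 and most members in set 1. At 2 h it was lowest in set 1 and most members in set 2. No interferon alpha gene on the array (Ifna1, Ifna2, Ifna4, Ifna5) and not Ifng passed with LPS, and their 4 h means lay between -0.08 and 0.14. Ifna4 was called higher with LPS plus PGE2 at 4 h (0.27, adjusted p 0.0314), and with the set block Ifna1 was called with LPS at 4 h (0.14, adjusted p 0.0457). Ifnb1 was called at 1 h, when 34 of the 36 members were not yet higher.

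Of the receptor genes with LPS, Ifnar1 was higher at 2 h (0.22) and Ifngr2 at 4 h (0.20), and others were lower. Ifnar2 was lower at all times, at -0.33, -0.66 and -0.35, Ifngr1 at 2 and 4 h (-0.79 at 4 h), and Tlr4, the receptor for LPS, at each time (-0.93 at 2 h). At 2 h the probes of Ifnar2 differed in size, -1.07 against -0.26. Those of Tlr4 stood at -1.54, -1.25 and 0. The last was 0 on all 6 arrays with LPS at 2 h, which draws the mean of Tlr4 towards 0. Of the kinases and factors downstream, Jak2 rose to 1.60 at 2 h and 1.95 at 4 h, Tyk2 to 0.97, Stat3 to 1.45 and Irf9, the partner of STAT2, to 0.83. Irf1 reached 2.57 and Irf7, which amplifies interferon production, 1.61, while Irf3 stood at -0.07 (adjusted p 0.825). Socs1, a feedback inhibitor of JAK kinases, reached 2.34, and Tlr3, a receptor for double-stranded RNA, 2.75.

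Ifnb1 with the combinations had lower means than with LPS, but not by a called difference. At 4 h it had 1.93, 4.83 and 4.64 with LPS plus ISO and 1.77, 4.64 and 4.66 with LPS plus PGE2. In set 1 of each, 1 of the 2 arrays listed Ifnb1 at 0 and the other had a log2 ratio of 3.85 with ISO and 3.53 with PGE2. The differences from LPS were -0.92 (-2.74 to 0.89) and -1.03 (-2.85 to 0.78), both with an adjusted p of 1. With zeros left out the 4 h means were 4.72, 4.44 and 4.28 for LPS, LPS plus ISO and LPS plus PGE2. The intervals for Ifnb1 are wider than those of most members.

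Irf8, a transcription factor of myeloid cells, and the receptor subunit Ifnar1 passed with both ISO and PGE2 alone. At 2 h Irf8 was lower with ISO, at -0.67, -0.41 and -0.96 (adjusted p 0.000279), and with PGE2, at -0.46, -0.33 and -0.69 (adjusted p 0.0338). At 4 h it stood at 1.20, 1.65 and 1.62 with LPS, 0.81, 0.91 and 1.25 with LPS plus ISO and 0.85, 0.76 and 1.14 with LPS plus PGE2. Each set had a lower value with either combination than with LPS. The differences of -0.50 (-0.82 to -0.17) and -0.57 (-0.90 to -0.25) did not pass, with adjusted p of 0.713 and 0.431 in limma. With the set block they passed, at adjusted p of 0.0373 and 0.0148. Ifnar1 was higher with ISO at all 3 times, at 0.22, 0.36 and 0.29, and with PGE2 at 2 and 4 h, at 0.24 and 0.25. Ifngr2 was higher with ISO at 4 h, at 0.27. Of the 28 pathway genes, the counts called higher and lower with ISO were 1 and 0, 1 and 1, and 2 and 0 at the 3 times, and with PGE2 0 and 0, 1 and 1, and 1 and 0. Over all genes 0.903%, 1.71% and 3.36% were called in either direction with ISO and 0.323%, 0.456% and 1.14% with PGE2.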

How the data were processed

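The deposited table holds log2 ratios for 16281 probes on 88 custom 2-colour Agilent arrays, made by the authors. The log2 scale was read from the values, which end at the log2 of 100, and 17 values stood at that limit, none of them a member's. The sources used here name no normalization step. Arrays with treated cells in Cy5 and in Cy3 numbered 44 each. A probe was used where the platform annotation gave 1 gene (13738 probes, 13694 with a current symbol through Entrez identifiers; 52 had several genes and 2491 were not listed). After 478 probes at 0 on every array were left out, 13260 probes gave 10518 genes, 2452 of them averaged over several probes. Exact zeros were kept as 0.

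The 2 arrays of a dye swap were averaged and counted as 1 set. One fit of 15 group means was made with limma 3.58.1 (lmFit and eBayes, R 4.3.3), with 29 residual and 2.678 prior degrees of freedom, and differences between groups were contrasts of it. Over the 17 pairs without LPS the correlation of the 2 arrays ran from -0.588 to 0.312, and over the 27 pairs with LPS from 0.185 to 0.842. On simulated data for LPS at 4 h, 100% of 100 genes were recovered at a log2 shift of 1 and of 2. Both shifts, each of its own 100 genes, were in the same simulation of 10518 genes, which gave 17 false calls in total. Recovery with exact zeros, or with sets that deviate together, was not tested.

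Sets of one number and time deviated together: the correlation of deviations from group means was 0.20 to 0.76 at 1 h, 0.15 to 0.61 at 2 h and 0.03 to 0.77 at 4 h, against -0.42 to 0.38 between times. The block on set within each time was added after the data were seen.

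The members and lists were chosen with earlier results of these data known. Set values are given for the 10 largest members with LPS at 4 h, members called at 1 h and members not called at 4 h. Other genes are named by role. Of the pathway list, some genes that passed and some that did not are named. Ikbke, Tbk1, Irf2, Irf5, Jak1 and Ptpn2 were also called higher with LPS at some time, and their values are not given. Genes named at 2 h and in examples of sets and differences were chosen after their values were seen. Alternatives were zeros as missing, recentred arrays, a probe filter, blocks, fits of single comparisons and leaving out a set. Promoter windows come from RefSeq (GRCm38.p6).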

Additional observations from a re-analysis of the deposited data

Results flagged for a closer look

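The LPS response of the interferon-stimulated genes differed between times by the test of the difference itself. Between 1 and 2 h 3 members differed (Ifih1, Parp14 and Isg15), and between 2 and 4 h 32 members did, all of them higher at the later time.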

How the results depend on the processing

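The count with LPS at 4 h stayed between 29 and 35 under every alternative run, and the 0 counts of each combination against LPS and between combinations stayed 0. The block on set within each time gave 9 members with LPS, 6 with LPS plus ISO and 6 with LPS plus PGE2 at 1 h, 18 between LPS at 1 and 2 h, 1 with ISO at 2 h, 3 with ISO at 4 h and 1 with PGE2 at 1 h. A replicate block on set number over all times gave 5 with LPS plus ISO at 1 h and 5 between LPS at 1 and 2 h, and moved no other count by over 1.5 times. With only a comparison's own groups in the fit, 1 member passed with LPS at 1 h and 0 at 2 h, 0, 0 and 17 with LPS plus ISO at 1, 2 and 4 h, 0 and 0 with LPS plus PGE2 at 1 and 2 h, and 0 between LPS at 1 and 2 h; such a fit has fewer samples. Leaving out 1 set gave 1 to 3 with LPS at 1 h, 9 to 19 at 2 h and 33 to 35 at 4 h. It gave 1 to 3, 9 to 19 and 33 to 34 with LPS plus ISO, 1 to 3, 7 to 16 and 33 to 34 with LPS plus PGE2, 0 to 1 with ISO at 4 h, 0 to 7 between LPS at 1 and 2 h and 27 to 31 between 2 and 4 h. No result reversed, and the cause of the shifts by set or block was not tested. Of 60 values of named genes, 60 kept their side of the threshold with recentred arrays, 53, 53 and 46 without set 1, 2 and 3, and 32 with only a comparison's own groups, where 28 no longer passed. Signal over background is unknown here, so zeros of Rsad2, Ifit2, Isg20 and Ifitm3 limit those genes.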
